A study of Mus musculus with 6 samples.

Results

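Cytochrome P450 genes of families 1 to 4 were described in the lungs of adult female mice from 2 crosses. The members were all probe sets whose single platform symbol is Cyp, a number from 1 to 4, a lowercase letter and a number. This rule gave 67 probe sets for 54 of the 18193 genes that had a probe set of their own, and each gene was represented by its brightest probe set (the highest mean over all 6 arrays). By family there were 3 Cyp1, 35 Cyp2, 5 Cyp3 and 11 Cyp4 genes. All 54 had the same symbol in RefSeq by gene ID, and Cyp2d13 is a pseudogene there. Of the 3 arrays in each group, those called AKR_F1 here came from F1 females with AKR/J and FVB/NJ as parent strains, and those called DBA_F1 from F1 females with DBA/2J and FVB/NJ as parents; the labels name no treatment and the design text calls the differences sought basal. The parents were of inbred strains, so every animal had a chromosome set from FVB/NJ and the groups differed in the other set. The lungs were snap frozen after cervical dislocation under Avertin anaesthesia, and total RNA was hybridised to Affymetrix arrays. The labels give neither the exact age nor whether each array held a separate animal, so p-values measure the spread between these arrays, which may be technical.

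P450 enzymes are haem proteins of the endoplasmic reticulum that insert an oxygen atom into their substrates with electrons from P450 reductase and cytochrome b5. Families 1 to 3 oxidise drugs, pollutants, solvents and steroids, and family 4 oxidises mainly the ends of fatty acids and eicosanoids. In the mouse lung the enzymes of club cells, the secretory cells of the small airways, are best known, since they turn inhaled compounds such as naphthalene into reactive products. Family 1 genes are induced through the aryl hydrocarbon receptor, and many family 4 genes through the fatty acid receptor encoded by Ppara.

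Signals are log2 values. Each difference is the AKR_F1 mean less the DBA_F1 mean, and its standard error (SE) is the moderated one from limma. Signals of different probe sets are not comparable as amounts. In bulk tissue, fewer cells of a type and less RNA per cell cannot be told apart. The lung was checked by its markers: the 8 alveolar type 2 markers found had probe set means between 10.94 and 14.31, and the 8 club cell markers between 7.83 and 14.37. All 8 type 2 markers had higher means in AKR_F1, and 3 of them were called. The type 1 and endothelial lists had median differences of 0.22 each, with 0 calls. For the liver, the organ richest in P450 transcripts, 6 of the 9 hepatocyte markers found were below the filter level of 4.72, albumin (Alb) among them with 4.11 ± 0.029 in AKR_F1 and 4.37 ± 0.10 in DBA_F1 (SD, n = 3). The other 3, Apoa1, Tat and Ttr, had means over all arrays of 4.97, 5.0 and 5.89, and 0 were called. Correlations between arrays lay between 0.965 and 0.995. AKR_F1 replicates 1 and 2 stood apart in having little RNA of squamous epithelium and skeletal muscle: keratin 13 (Krt13) was at 3.48 and 3.30 there, at 12.13 in AKR_F1 replicate 3 and between 11.85 and 12.46 in DBA_F1. The skeletal muscle list mean was 5.37 and 4.87 there, 9.16 in AKR_F1 replicate 3 and between 8.58 and 9.08 in DBA_F1. The mean of the adipocyte list (8 of 10 markers found) ran from 6.48 to 7.47 in AKR_F1 and from 8.28 to 9.37 in DBA_F1.

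Most of the family had a mean signal below the filter level. The dimmest 40% of probe sets were not tested, and 35 of the 54 genes fell there. The share tested was thus 35.2% of these genes, against 72.6% of all genes. The tested share was 2 of 3 in Cyp1, 9 of 35 in Cyp2, 1 of 5 in Cyp3 and 7 of 11 in Cyp4. The subfamilies typical of liver were nearly all dim: 1 of 11 Cyp2c genes, 1 of 8 Cyp2d genes and 0 of 2 Cyp4a genes passed. The 35 untested genes had means between 2.37 and 4.59 and differences between -0.29 and 0.18. Around the filter level, Cyp2u1 (mean 4.59) was left out and Cyp2c70 (4.90), a bile acid hydroxylase of the liver, was kept. The plot of group means shows the dim genes close to the line of equal signal.

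**Figure D1:**
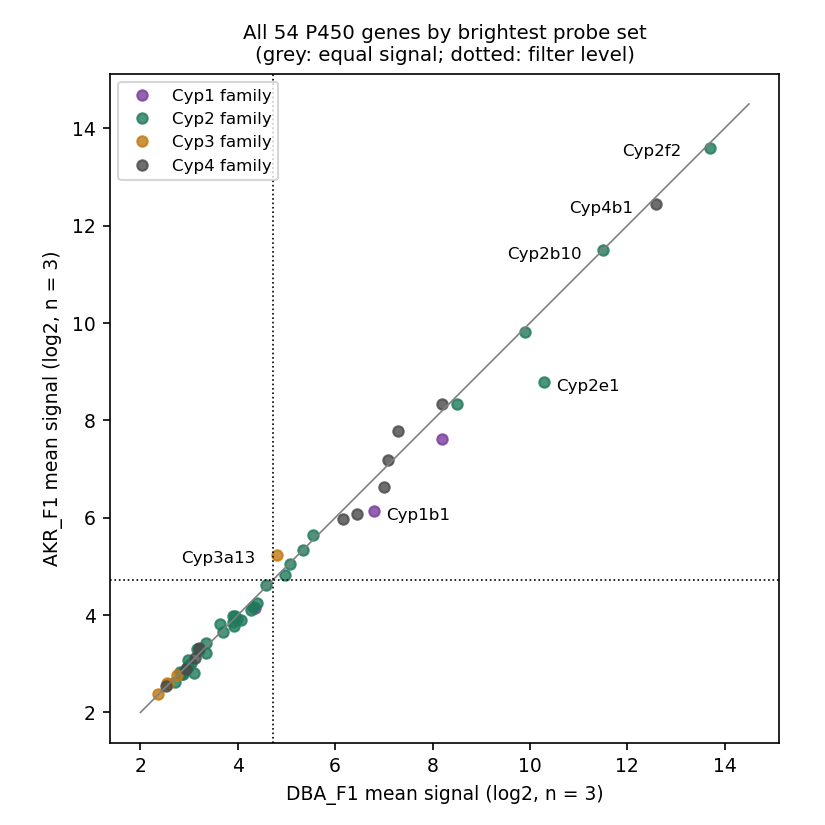
Mean log2 signal of each of the 54 P450 genes in AKR_F1 (vertical axis) against DBA_F1 (horizontal axis), n = 3 arrays per group, coloured by family. The grey line marks equal signal and the dotted lines the filter level of 4.72; 35 genes lie below it, and Cyp2e1, at 8.78 against 10.28, lies farthest from the line.

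Among the 19 tested genes Cyp2e1 was the only one called, and it was higher in DBA_F1. At an adjusted p under 0.05 this is 1 of 19, or 5.26%, where 2.48% of all 13202 tested genes were called, and 1.06% were called with higher signal in DBA_F1. One call among 19 genes is close to this background. The groups did not overlap in 7 of the 19 genes (36.8%), against 24.2% of all tested genes. An unadjusted p under 0.05 was reached by 7 genes (36.8%), against 19.1% of all tested genes, and 6 of these 7 had the lower mean in AKR_F1. The median difference over the 19 genes was -0.094, beside 0.015 over all tested genes. Of the 19 differences 13 were negative (68.4%), against 44.9% of all tested genes. Apart from Cyp2e1, the differences ran from -0.66 (Cyp1b1) to 0.49 (Cyp4f18).

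**Figure D2:**
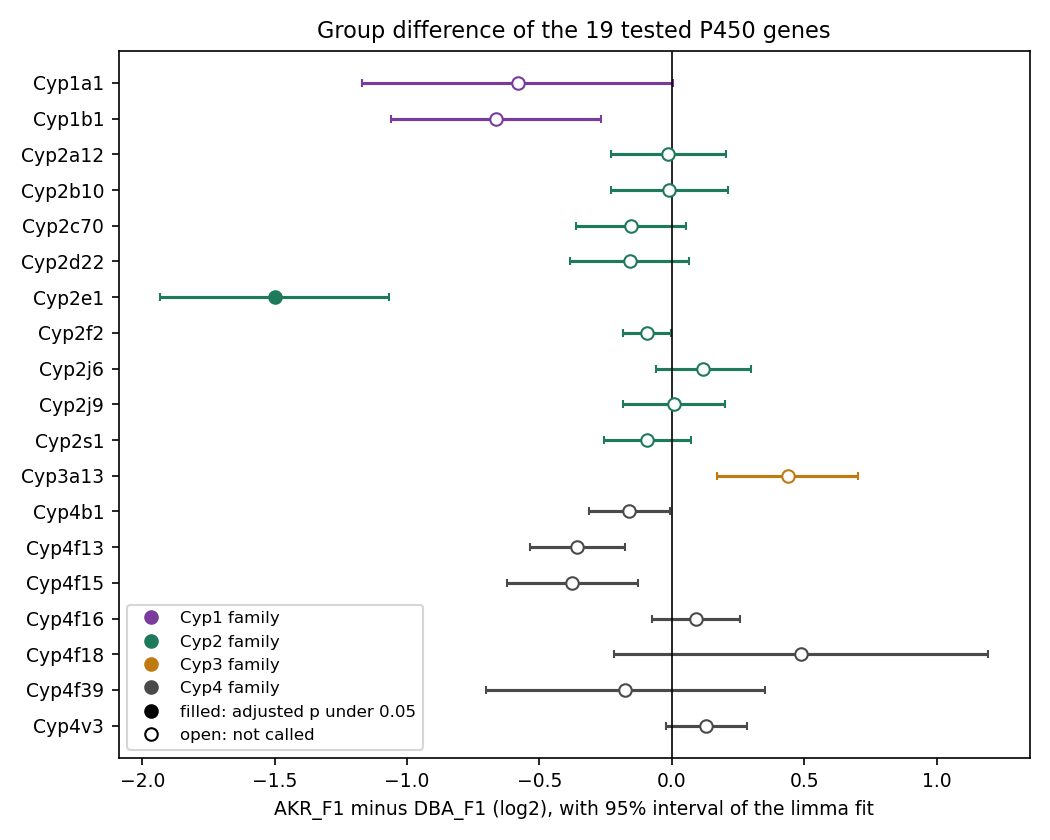
AKR_F1 minus DBA_F1 difference (log2, horizontal axis) of the 19 tested P450 genes with the 95% interval of the limma fit, coloured by family, filled where the adjusted p was under 0.05. Cyp2e1 at -1.50 is the only filled point; Cyp1b1, Cyp2f2, Cyp3a13, Cyp4b1, Cyp4f13 and Cyp4f15 have intervals that leave out 0 but did not pass the adjustment.

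Cyp2e1 encodes the P450 that oxidises ethanol, acetone and other small molecules, and it is expressed in liver, lung and fat. In order of replicate number its signal was 9.08, 8.52 and 8.75 in AKR_F1 and 10.33, 10.55 and 9.97 in DBA_F1, and values of other genes follow the same order. All 3 DBA_F1 arrays lay above all AKR_F1 arrays, and DBA_F1 replicate 3 was the lowest of its group. The group means were 8.78 ± 0.29 and 10.28 ± 0.30 (SD, n = 3), a 2.83-fold higher signal in DBA_F1 (difference -1.50 ± 0.18 SE, 95% interval -1.93 to -1.07, limma adjusted p = 0.0104). The gene had 1 probe set, so no other probe set could be set beside it.

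Adipocyte markers, like Cyp2e1, were higher in DBA_F1. Of the 8 markers found, 6 were called, all higher in DBA_F1, and the groups did not overlap in any of the 8. The adipocyte hormone gene Adipoq had a signal of 9.02, 8.16 and 8.40 in AKR_F1 and 10.44, 10.87 and 9.82 in DBA_F1, with the same highest and lowest array in each group as Cyp2e1. Fabp4, Pck1 and Retn had these highest and lowest arrays too, while Cidec, Lipe and Ucp1 were lowest in AKR_F1 replicate 3. Lep had 4.61, 4.57 and 4.31 in AKR_F1 and 5.09, 5.16 and 5.56 in DBA_F1. Its highest DBA_F1 array was thus replicate 3, the lowest for Cyp2e1. The list mean was also highest in AKR_F1 replicate 1 and DBA_F1 replicate 2. Unlike Cyp2e1, its lowest AKR_F1 array was replicate 3 (6.48, against 6.59 in replicate 2). The adipocyte mean separates the groups completely. With it as a term in the fit, the Cyp2e1 difference was -0.53 (limma adjusted p = 0.825), and then 2 of all 13202 genes were called. The part of adipocytes in the Cyp2e1 difference was not tested. On AKR_F1 replicate 3, whose squamous and muscle list means lay within or above the DBA_F1 range, Cyp2e1 was at 8.75, and the part of these tissues in the difference was not tested. The call was lost without AKR_F1 replicate 2 (-1.37, limma adjusted p = 0.0508). It was also lost when upper airway and oesophagus markers entered the fit as their mean (-1.49, limma adjusted p = 0.0954) and for AKR_F1 replicate 3 alone against DBA_F1 (-1.54, limma adjusted p = 0.103).

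**Figure D3:**
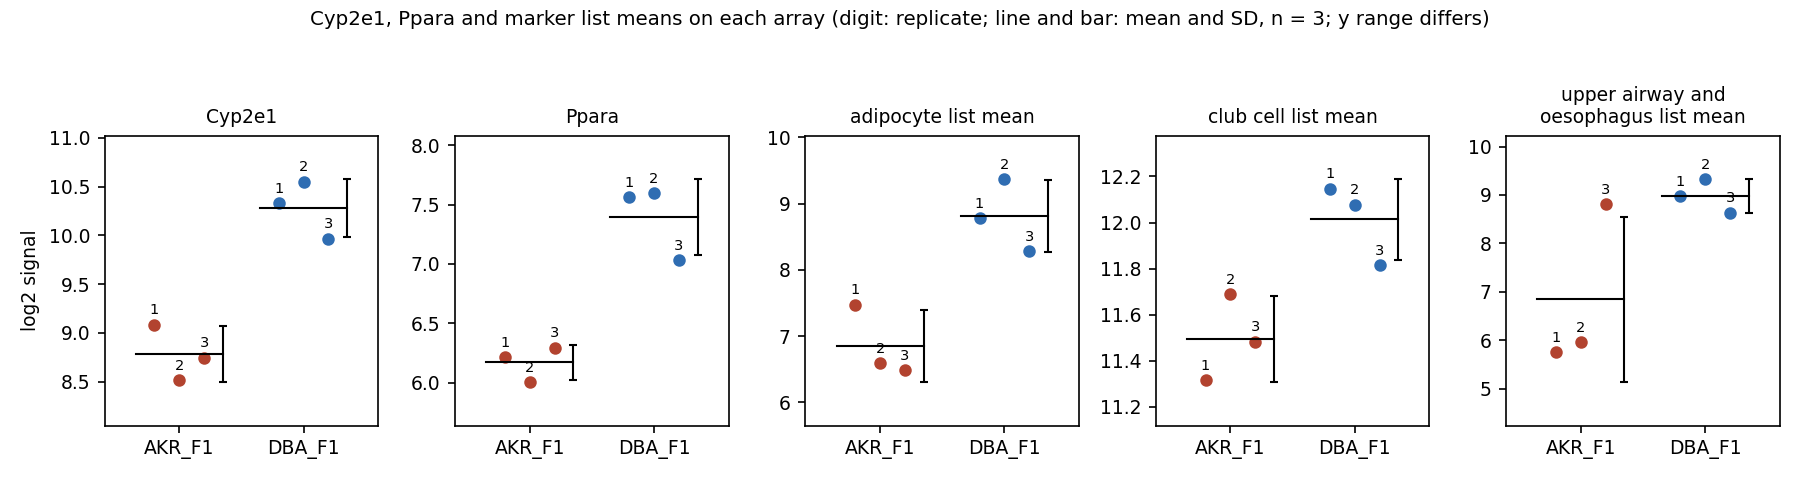
Log2 signal of Cyp2e1 and Ppara and the mean of the adipocyte, club cell, and upper airway and oesophagus marker lists on each array, with the replicate number at each point and the group mean and SD (n = 3) as a line and bar. The vertical range differs between panels; the first 4 panels separate the groups, while AKR_F1 replicate 3 (8.81) joins the DBA_F1 arrays in the last.

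The 250 bases before the start of Cyp2e1, from the RefSeq promoter table on GRCm38.p6 (chr7:140763569-140763818, plus strand), are shown because this is the gene that passed the test. Capitals mark a TATA box (TATAAA) 31 to 26 bases before the start and CCAAT on the opposite strand (read as ATTGG) at 68 to 64 and 210 to 206 bases.
Cyp2e1: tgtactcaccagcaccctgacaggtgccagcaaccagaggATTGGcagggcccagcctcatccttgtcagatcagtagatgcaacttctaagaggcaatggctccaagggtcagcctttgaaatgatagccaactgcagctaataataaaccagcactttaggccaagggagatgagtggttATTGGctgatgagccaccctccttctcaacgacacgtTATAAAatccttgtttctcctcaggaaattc
The TATA box, CCAAT, the aryl hydrocarbon receptor core GCGTG, the nuclear receptor motif AGGTCA and the HNF1 motif GTTAAT were searched on both strands, and no match overlaps another in the sequences shown. Promoters were found for 43 of the 54 genes. TATAAA was present in 17 of these 43 (39.5%) and in 12.4% of all 32851 promoters of this length in the table. Here and below a gene was counted if any of its promoters matched, while the shares of all are per promoter. Among the 18 tested genes with a promoter it was present in 4, namely Cyp1a1, Cyp2a12, Cyp2c70 and Cyp2e1. CCAAT was present in 17 of 43 (39.5%, against 33.8% of all), AGGTCA in 11 (25.6%, against 14%), GCGTG in 10 (23.3%, against 28.2%) and GTTAAT in 3 (6.98%, against 6.43%). A match to such short letters is a description of the sequence and not a binding site.

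Among the members by the rule, the other bright Cyp2 genes, which include the best known club cell P450, had differences between -0.16 and -0.0097. They were not called. Cyp2f2, which activates naphthalene in club cells, had a signal of 13.59, 13.64 and 13.58 in AKR_F1 and 13.74, 13.67 and 13.69 in DBA_F1. The groups did not overlap, but the difference was -0.094 ± 0.038 (limma adjusted p = 0.249). Beside it, the club cell list mean ran from 11.31 to 11.69 in AKR_F1 and from 11.82 to 12.15 in DBA_F1. All 8 markers were lower in AKR_F1 by their means, and 1 of them was called. Their median difference was -0.17. Bpifa1 (-1.67), Scgb3a1 (-1.21) and Muc5b (-0.77) differed most, and the other markers lay between -0.19 (Hp) and -0.048 (Gabrp), with Scgb1a1 at -0.059. The part of club cells in the P450 values was not tested.

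Cyp2b10, a target of the xenobiotic receptor CAR in liver, had 11.50, 11.60 and 11.39 in AKR_F1 and 11.34, 11.48 and 11.69 in DBA_F1. The arrays of the groups were mixed, and the difference was -0.0097 with a 95% interval from -0.23 to 0.21. Its 3 probe sets had differences of -0.032, -0.0097 and 0.022, none of them called, and 2 of the 3 carry the suffix that Affymetrix gave to probe sets shared between similar transcripts. Cyp2d22 had 8.40, 8.43 and 8.19 in AKR_F1 and 8.38, 8.45 and 8.66 in DBA_F1 (-0.16, interval -0.38 to 0.064), and its other tested probe set differed by -0.15. Cyp2s1, an epithelial P450, had 9.67, 9.89 and 9.89 in AKR_F1 and 9.88, 9.90 and 9.95 in DBA_F1 (-0.093, interval -0.26 to 0.072). The other 4 tested Cyp2 genes, Cyp2a12, Cyp2c70, Cyp2j6 and Cyp2j9, had differences between -0.15 and 0.12. Members in the chromosome 7 cluster, which runs from Cyp2s1 through the Cyp2b and Cyp2a genes to Cyp2f2, thus gave no call. A called Cyp2a probe set outside the rule is described below. Cyp2e1 is on the same chromosome, and in RefSeq's order Cyp2r1 lies between it and the cluster.

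A probe set of the same chromosome 7 cluster lay outside the rule because the platform annotation gives it 2 symbols of the Cyp2a subfamily. It was singled out after its values were seen. Its signal was 9.23, 10.01 and 9.52 in AKR_F1 and 11.38, 11.28 and 10.94 in DBA_F1. The groups did not overlap, and the signal was 3.06-fold higher in DBA_F1 (-1.61 ± 0.20, limma adjusted p = 0.0112). Within each group its arrays had the same order as the club cell list mean, which was also higher on the 3 DBA_F1 arrays. The markers Scgb3a1, Scgb3a2, Bpifa1 and Muc5b had this order in both groups, and Scgb1a1, Aldh1a1, Hp and Gabrp did not. The part of club cells was not tested. The array cannot say which of its genes gave the signal. The single-symbol member of the subfamily, Cyp2a12, had 5.17, 5.06 and 4.93 in AKR_F1 and 5.01, 5.02 and 5.15 in DBA_F1. In all, 6 probe sets of the 4 families fell outside the rule, 4 with several symbols and 2 with a symbol that ends otherwise, and only 2 of the 6 were tested.

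**Figure D4:**
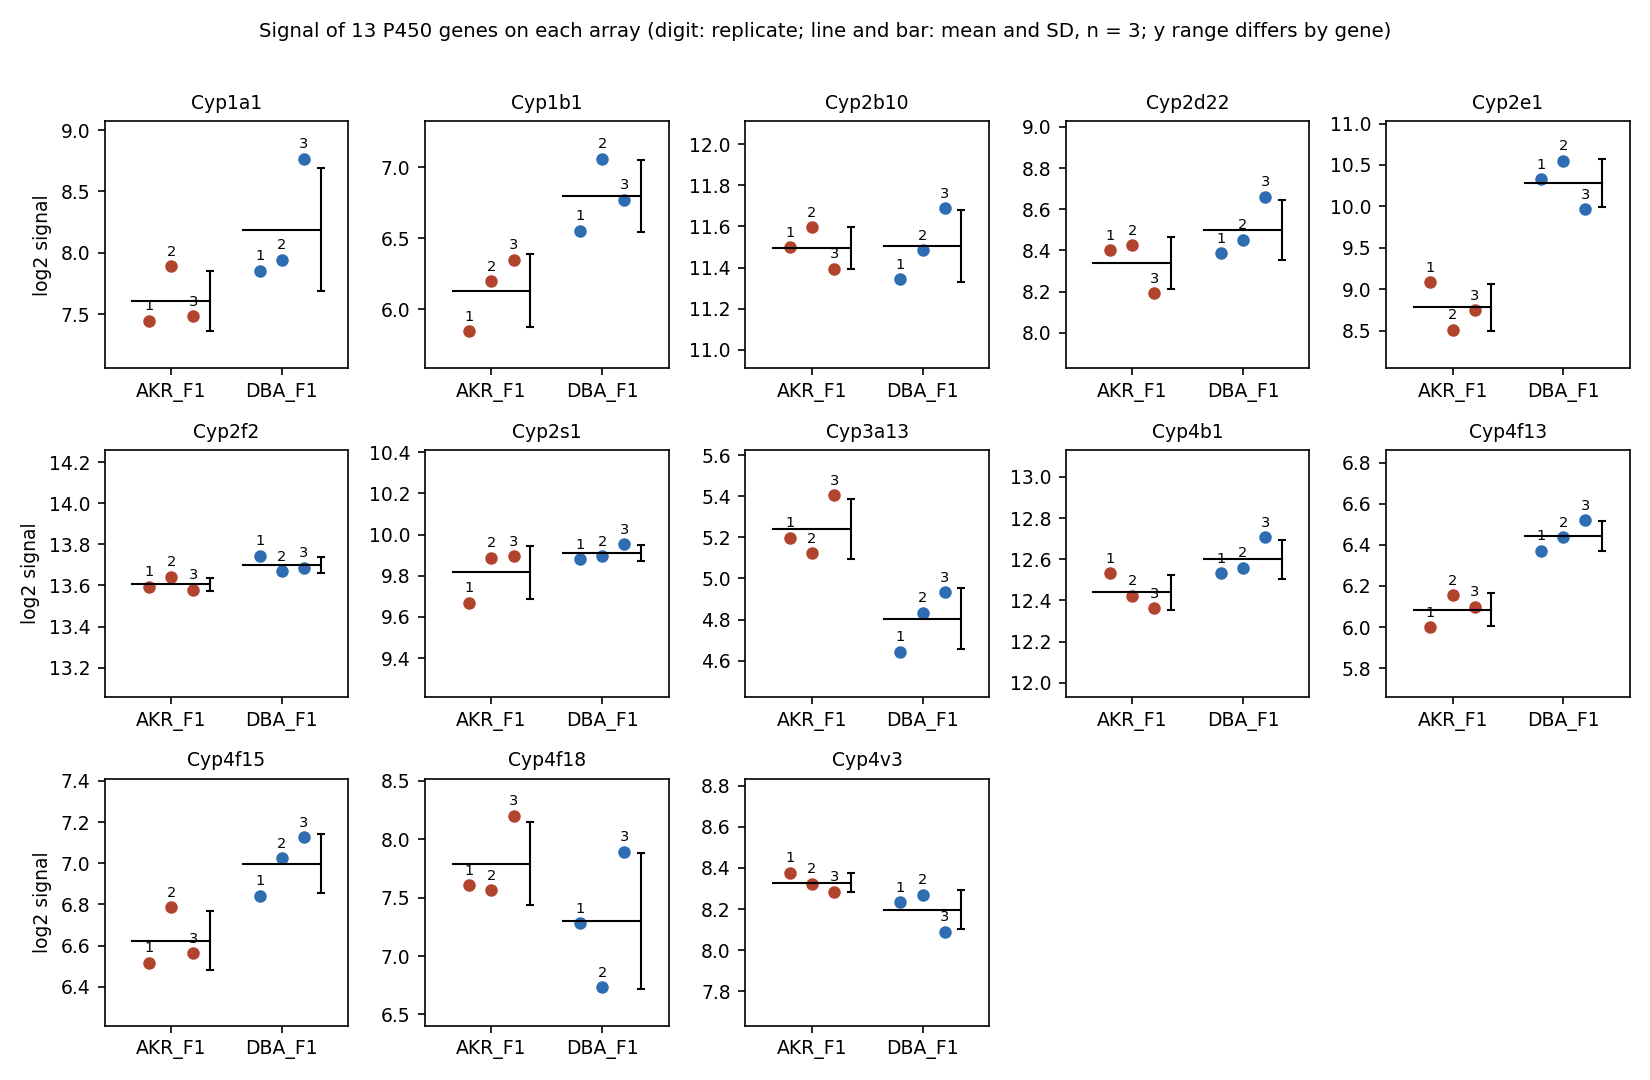
Log2 signal on each array for the 13 P450 genes named by rule, with the replicate number at each point and the group mean and SD (n = 3) as a line and bar; the vertical range differs between genes. The groups are separate for Cyp1b1, Cyp2e1, Cyp2f2, Cyp3a13, Cyp4f13, Cyp4f15 and Cyp4v3 and overlap for the other 6.

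Both tested Cyp1 genes had higher means in DBA_F1, and neither passed the test. Cyp1a1, the classic target of the aryl hydrocarbon receptor, had 7.45, 7.89 and 7.48 in AKR_F1 and 7.85, 7.94 and 8.77 in DBA_F1. The groups overlapped, and DBA_F1 replicate 3 was higher than the other 5 arrays. The difference was -0.58 ± 0.25 (limma adjusted p = 0.274) and -0.29 without that array. Cyp1b1, which hydroxylates oestradiol and polycyclic hydrocarbons outside the liver, had 5.85, 6.20 and 6.35 in AKR_F1 and 6.55, 7.06 and 6.77 in DBA_F1. The groups did not overlap, and the difference was -0.66 ± 0.17 (1.59-fold, interval -1.06 to -0.27, limma adjusted p = 0.103). A dimmer, untested probe set of Cyp1b1 had means of 3.49 in AKR_F1 and 4.09 in DBA_F1, and the other untested one 3.19 and 3.25. With array weights Cyp1b1 passed (-0.79, limma adjusted p = 0.0495). Cyp1a2, mainly a liver gene, was not tested (4.14 ± 0.12 in AKR_F1 and 4.34 ± 0.056 in DBA_F1). The promoters of the tested pair are shown because both genes are textbook targets of this receptor. They lie at chr9:57697363-57697612 on the plus strand (Cyp1a1) and chr17:79715062-79715311 on the minus strand (Cyp1b1), and capitals mark GCGTG (read as CACGC in Cyp1b1) and TATAAA.
Cyp1a1: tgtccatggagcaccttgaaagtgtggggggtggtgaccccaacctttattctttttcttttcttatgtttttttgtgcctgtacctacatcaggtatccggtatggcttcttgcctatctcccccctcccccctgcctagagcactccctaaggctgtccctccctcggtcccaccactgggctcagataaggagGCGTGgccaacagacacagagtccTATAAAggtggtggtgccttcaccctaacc
Cyp1b1: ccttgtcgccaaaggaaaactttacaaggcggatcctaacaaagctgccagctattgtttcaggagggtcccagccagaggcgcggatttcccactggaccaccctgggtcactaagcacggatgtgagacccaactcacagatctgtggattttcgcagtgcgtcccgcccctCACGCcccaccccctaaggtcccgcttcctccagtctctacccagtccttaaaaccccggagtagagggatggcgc
GCGTG stood 54 to 50 bases before the start of Cyp1a1 and, on the opposite strand, 76 to 72 bases before that of Cyp1b1. It was present in 7 of the 18 tested genes with a promoter, among them also Cyp2b10, with a difference of -0.0097, and Cyp4v3, with 0.13.

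Neither the receptor gene Ahr nor the 3 tested targets outside the P450 families were called. Of all tested genes 2.48% were called, so 0 calls among so few genes is close to the background. Ahr was at 10.37, 10.31 and 10.10 in AKR_F1 and 10.13, 9.66 and 10.14 in DBA_F1 (0.29, limma adjusted p = 0.332), with overlapping groups. Of the 6 listed targets outside the P450 families 4 were found and 3 tested, 0 of them called. Aldh3a1, an aldehyde dehydrogenase of squamous and corneal epithelium, had 7.63, 8.04 and 9.71 in AKR_F1 and 9.63, 10.37 and 9.86 in DBA_F1 (-1.49, limma adjusted p = 0.191). AKR_F1 replicate 3 lay among the DBA_F1 arrays, as it did for Krt13, and without it Aldh3a1 passed (-2.11, limma adjusted p = 0.00443). Nqo1, a quinone reductase, differed by -0.31 (limma adjusted p = 0.322) and passed without AKR_F1 replicate 3 as well (-0.49, limma adjusted p = 0.0408).

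Cyp3a13, the only tested member of family 3, was the member with higher signal in AKR_F1 on every array and an unadjusted p under 0.05. Family 3 enzymes metabolise steroids and many drugs. Cyp3a13 had 5.20, 5.12 and 5.40 in AKR_F1 and 4.64, 4.83 and 4.93 in DBA_F1. The difference was 0.44 ± 0.11 (1.35-fold, interval 0.17 to 0.70), and it did not pass (limma adjusted p = 0.108). DBA_F1 replicate 1 lay below the filter level, which is a cut by rank of mean signal and not a measure of background. The other 4 Cyp3a genes had means of at most 2.76 and differences between 0.015 and 0.057.

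Family 4 held 7 tested genes, with differences in both directions and 0 calls. Cyp4b1, a lung P450 that activates the furan toxin ipomeanol, had 12.53, 12.42 and 12.36 in AKR_F1 and 12.53, 12.56 and 12.71 in DBA_F1 (-0.16 ± 0.064, limma adjusted p = 0.249), and AKR_F1 replicate 1 was level with the lowest DBA_F1 array to 2 decimals. Cyp4v3, a fatty acid hydroxylase, had 8.38, 8.32 and 8.28 in AKR_F1 and 8.23, 8.27 and 8.09 in DBA_F1 (0.13 ± 0.064, limma adjusted p = 0.337), and the groups overlapped for its other tested probe set (0.058). Cyp4f18, which oxidises leukotriene B4 in neutrophils, had the largest SE of the tested P450 genes: 7.61, 7.56 and 8.20 in AKR_F1 and 7.28, 6.73 and 7.89 in DBA_F1 (0.49 ± 0.30, limma adjusted p = 0.436). Replicate 3 was the highest array of each group.

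Cyp4f13 and Cyp4f15, hydroxylases of fatty acids and eicosanoids, had the lower signal in AKR_F1. Cyp4f13 had 6.0, 6.16 and 6.10 in AKR_F1 and 6.37, 6.44 and 6.52 in DBA_F1, so that the groups did not overlap (-0.36 ± 0.076, 1.28-fold, limma adjusted p = 0.0640). Cyp4f15 had 6.52, 6.79 and 6.56 in AKR_F1 and 6.84, 7.02 and 7.13 in DBA_F1, also without overlap (-0.38 ± 0.10, 1.30-fold, limma adjusted p = 0.127). Neither passed, except Cyp4f13 with array weights (limma adjusted p = 0.0434) and in the fit to gene means (0.0478). Both lie in the Cyp4f cluster of chromosome 17, with Cyp4f14 (untested, mean 3.27) between them. The other tested genes of that cluster, described after their values were seen, had overlapping groups: Cyp4f16 differed by 0.093 and Cyp4f39 by -0.18. Cyp1b1 is on chromosome 17 too, outside the cluster.

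The 250 bases before each start are shown for this pair since the genes are close relatives with like differences. They are chr17:32947362-32947611 on the minus strand (Cyp4f13) and chr17:32685409-32685658 on the plus strand (Cyp4f15). Capitals mark the only match in each, CCAAT on the opposite strand, 76 to 72 bases before the start of Cyp4f13 and 78 to 74 before that of Cyp4f15.
Cyp4f13: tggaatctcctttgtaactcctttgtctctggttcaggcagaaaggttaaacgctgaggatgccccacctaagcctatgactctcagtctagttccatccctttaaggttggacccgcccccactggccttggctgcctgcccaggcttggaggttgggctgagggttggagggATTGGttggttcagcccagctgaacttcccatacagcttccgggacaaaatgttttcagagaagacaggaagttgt
Cyp4f15: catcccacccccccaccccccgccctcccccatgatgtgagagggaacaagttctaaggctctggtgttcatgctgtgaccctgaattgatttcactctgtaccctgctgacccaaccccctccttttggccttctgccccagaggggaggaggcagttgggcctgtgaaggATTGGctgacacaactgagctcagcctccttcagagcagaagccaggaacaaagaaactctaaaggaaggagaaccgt
The same letters were present in Cyp4f16 and Cyp4f18, whose differences were positive.

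Genes that serve the P450 enzymes were counted from 5 lists, with 49 of 56 genes found and 44 tested. Of these 1 was called, or 2.27% against 2.48% of all tested genes. It was Ppara, whose product binds fatty acids and induces family 4 genes and fatty acid oxidation. Ppara had 6.21, 6.0 and 6.29 in AKR_F1 and 7.56, 7.60 and 7.03 in DBA_F1. The groups did not overlap, and the signal was 2.34-fold higher in DBA_F1 (-1.23 ± 0.16, limma adjusted p = 0.0140). The adipocyte list mean was higher on the same 3 arrays, and its part was not tested. The call was lost without AKR_F1 replicate 1 (-1.25, limma adjusted p = 0.0635), AKR_F1 replicate 2 (-1.14, 0.0716) or DBA_F1 replicate 2 (-1.13, 0.0610). It was also lost with the upper airway and oesophagus covariate (-1.04, 0.139), the adipocyte covariate (-0.69, 0.828), for AKR_F1 replicate 3 alone (-1.10, 0.252) and with the mean of its probe sets (-0.81, limma adjusted p = 0.0511).

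In the same list of 20 receptors and transcription factors, 18 were found and 14 tested. The glucocorticoid receptor Nr3c1 had 10.56, 10.59 and 10.49 in AKR_F1 and 10.37, 10.18 and 10.30 in DBA_F1 (0.26 ± 0.060, limma adjusted p = 0.0792), with no overlap, and passed with array weights (0.30, limma adjusted p = 0.0388). Nr1i2 and Nr1i3, which encode the liver xenobiotic receptors PXR and CAR, were below the filter, each with a mean of 3.88. Of the 7 listed electron transfer partners 6 were found and tested, and 0 were called. The P450 reductase gene Por had no probe set with it as the single symbol, so it was not tested. Cyb5b, a cytochrome b5 of the outer mitochondrial membrane, differed by 0.18 (limma adjusted p = 0.225) and the haem-binding protein Pgrmc1 by 0.13 (limma adjusted p = 0.267). Of the genes of haem synthesis and breakdown 11 were tested and 0 called, with Urod at -0.12 (limma adjusted p = 0.279) and Blvrb at -0.15 (limma adjusted p = 0.284) as those with the smallest p.

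Among 10 tested partners in eicosanoid and epoxide metabolism 0 were called. The soluble epoxide hydrolase Ephx2, which opens the epoxides that Cyp2 enzymes make from arachidonic acid, had 6.68, 6.06 and 6.10 in AKR_F1 and 7.82, 8.42 and 7.02 in DBA_F1. The groups did not overlap, and the difference of -1.47 ± 0.34 did not pass (limma adjusted p = 0.0847). Like Cyp2e1 and Adipoq, Ephx2 was highest in AKR_F1 replicate 1 and DBA_F1 replicate 2 and lowest in AKR_F1 replicate 2 and DBA_F1 replicate 3. It passed without DBA_F1 replicate 3 (-1.84, limma adjusted p = 0.0252) and with array weights (-1.61, limma adjusted p = 0.0470). Ephx3, an epoxide hydrolase of squamous epithelium, differed by -0.69 (limma adjusted p = 0.309) and passed without AKR_F1 replicate 3 (-1.07, limma adjusted p = 0.0161).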

How the data were processed

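Lung RNA of 6 arrays was measured, 3 per group, with groups and replicate numbers taken from the sample titles. The table that the authors deposited holds a log2 signal for each probe set on each array. MAS5 and RMA, without versions, appear in the submitters' processing notes, and which made the table is not given in the sources used here. Array medians lay between 5.46 and 5.49 and the largest value was 14.56, so the values were used as scaled log2 signals without further normalization. Precision is limited by the number of arrays. Without the 64 control probe sets there were 45037, of which 34945 had 1 symbol in the platform annotation. The lowest 40% by mean over all arrays (4.72 or less) were left out, which left 27022 probe sets and 13202 genes.

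Groups were compared with limma 3.58.1 in R 4.3.3 (two-sided, with no term but group and a trend of variance on mean in eBayes; degrees of freedom were 4 residual and 3.06 prior). The Benjamini-Hochberg adjustment ran over all tested probe sets, with a threshold of 0.05. The fit was run on simulated data with independent noise for each probe set. Such data lack the tissue differences between these arrays, so the run cannot speak for the calls made here. The members, gene lists, tests and alternatives were chosen with earlier results of these data known. P450 genes were named if called, if their mean lay above the upper quartile of all probe sets (7.44), if the unadjusted p was under 0.05, if their tested probe sets disagreed, or if they were Cyp1a1, Cyp1b1, Cyp2e1, Cyp2f2 or Cyp4b1. Of each partner list the called genes and those with the 2 smallest p were named. Ahr, Nr1i2, Nr1i3 and marker genes were added as context. RefSeq tables of GRCm38.p6 gave gene order and promoters.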

Additional observations from a re-analysis of the deposited data

How the results depend on the processing

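The count of called P450 genes was 1 (Cyp2e1). It was 3 with array weights (Cyp1b1 and Cyp4f13 added), 2 with probe sets averaged per gene (Cyp4f13 added), and 0 with the upper airway and oesophagus covariate, with the adipocyte covariate, and for AKR_F1 replicate 3 alone against DBA_F1. With 1 array left out it ran from 0, without AKR_F1 replicate 2, to 1. Deviations of same-numbered arrays from their group means correlated at 0.31, -0.23 and -0.050. Different-numbered arrays were not set beside them, so these values cannot settle whether the replicate numbers pair the arrays. With the replicate block the count was 2, with Cyp1b1 added (adjusted p = 0.0497), and the partner count did not change. The count of called partner genes (1) was 3 with array weights, 2 by the most variable probe set and 0 with either covariate, for AKR_F1 replicate 3 alone and with probe set means. It ran from 0, without AKR_F1 replicates 1 or 2 or DBA_F1 replicate 2, to 4, without AKR_F1 replicate 3, and was 3 without DBA_F1 replicate 3. Calls over all tested genes moved as well, from 327 in the main fit to 592 with array weights and 440 by the most variable probe set. They were 280 with probe set means, 234 with the replicate block, 79 with the upper airway and oesophagus covariate and 2 with the adipocyte covariate. With 1 array left out they ran from 83, without AKR_F1 replicate 1, to 656, without AKR_F1 replicate 3.

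The median P450 difference (-0.094) was -0.037 with no filter (54 genes) and -0.16 with a 60% filter (13 genes), where other genes enter it, and ran from -0.11 to -0.078 with 1 array left out. The sign of Cyp2b10 turned with array weights (0.014) and by its most variable probe set (0.022), and ran from -0.091 to 0.082 with 1 array left out. With the adipocyte covariate it turned for Cyp4f18 (-0.90), Ephx2 (0.40) and Pgrmc1 (-0.029). The upper airway and oesophagus covariate turned it for Ephx3 (0.18) and Nqo1 (0.045), and for AKR_F1 replicate 3 alone likewise (0.081 and 0.030). The cause of these changes was not tested. The other named P450 genes kept their sign in every alternative that gave a value for them.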

Other observations

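Of 21 listed genes of P450 families above 4, 19 were found and 9 tested, with a median difference of 0.063. In limma 0 of the 9 passed, and 2 had an unadjusted p under 0.05. Over all tested genes 2.48% were called and 19.1% had such a p, so these counts are close to the background. Cyp27a1, the mitochondrial sterol hydroxylase, differed by -0.25 (limma adjusted p = 0.217), and Cyp20a1 by 0.21 (limma adjusted p = 0.234). The retinoic acid hydroxylase Cyp26b1 was at 5.16 and 5.62 in AKR_F1 replicates 1 and 2, at 7.51 in AKR_F1 replicate 3, and at 6.74, 7.19 and 7.07 in DBA_F1, which sets the same pair of arrays apart as Krt13 does. These 3 genes were chosen after their values were seen.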
